A study of Mus musculus with 12 samples.

Results

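Mitochondrial ribosomal protein genes were taken from the deposited table by symbol: the letters Mrpl or Mrps followed by a digit. Of 12774 symbols in the table, 75 met this rule, 47 named Mrpl and 28 named Mrps. The rule used no measured value. Messenger RNA was measured by digital gene expression, in which sequence tags stand for transcripts, in C17.2 cells, an established mouse neural progenitor line. The C17.2a line stably expresses a tagged thyroid hormone receptor alpha and the C17.2b line a tagged thyroid hormone receptor beta, so all libraries carry an added receptor and none comes from the parental line. After 24 h without serum, cells of each line were left untreated or received thyroid hormone (T3) at 1e-07 M for 6, 12 or 24 h. This gives 12 libraries, 1 for each line, treatment and time. No label says whether a line is 1 clone or whether libraries are separate cultures, so the p-values below measure only the spread between these libraries.

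Mitochondria have ribosomes of their own, which translate the messenger RNAs of mitochondrial DNA into subunits of the respiratory chain and ATP synthase. The ribosomal RNAs of these particles are transcribed inside the organelle, while the protein components are encoded in the nucleus, made on cytosolic ribosomes and imported. Some of the proteins have relatives in bacterial ribosomes and others are found only in mitochondria. Thyroid hormone is known as a regulator of mitochondrial content in several tissues, and its receptors are transcription factors that bind the half-site AGGTCA, best known in direct repeats spaced by a few bases (DR4).

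By place in the particle, 49 of the 75 genes code for proteins of the large subunit and 26 for proteins of the small subunit. Mrps18a and Mrps30 carry a small-subunit name but sit in the large subunit. By the revised family names of the proteins, 46 have a bacterial relative and 29 are specific to mitochondria. Levels are given as RPM, tags scaled to the total of a library. RPM is not corrected for transcript length, so single genes are not ranked by level, and the ranges, sums and shares over genes below count tags and not molecules per length. The rule that assigned tags to genes is not known here, so genes with overlapping or near-identical 3' ends may share tags. The mean over 12 libraries ranged from 0.147 RPM for Mrpl16 to 965 RPM for Mrpl13, with a median of 29.7 RPM against 11.8 RPM over all symbols. The mean was at least 10 RPM for 62 genes, between 1 and 10 RPM for 11 and under 1 RPM for 2. Those 2 were Mrpl16, which was listed without a value in at least 1 library and never passed 0.41 RPM, and Mrps27, which ranged from 0.16 to 2.38 RPM. Both had fewer than 3 implied tags in at least 1 library. Genes had to reach 1 RPM in 3 or more of the libraries fitted, which left 74 members for the T3 tests, all but Mrpl16, and 73 for the tests within untreated or within T3 libraries, from which Mrps27 was also missing.

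The implied depth was 7.14e+06 to 1.91e+07 tags per library, and 3 tags correspond to 0.157 to 0.42 RPM. The 4 libraries of 24 h lay at 7.14e+06 to 9.8e+06 tags. The 10 most abundant genes took 6.89 to 7.21% of the tags at 24 h and 9.58 to 11.4% at 6 and 12 h. Of 9 neural progenitor markers, 8 were in the table. Sox2 lay at 61.96 to 305.94 RPM, Nes at 70.23 to 641.71 RPM and Vim at 1112.07 to 4940.95 RPM, Msi1 did not pass 4.35 RPM, and Pax6 was not among the symbols. Markers of other cell types were uneven. Of the fibroblast list Col1a1 lay at 747.16 to 5353.24 RPM, but Dcn did not pass 7.28 and Pdgfra 6.68 RPM. Of the oligodendrocyte list Sox10 lay at 134.9 to 758.65 RPM, but Olig2 did not pass 1.9 and Mbp 2.88 RPM. Of the neuron list Tubb3 lay at 44.48 to 576.39 RPM, but Snap25 did not pass 1.57 and Syp 1.94 RPM. Only 1 of 4 immune markers was listed and it did not pass 0.42 RPM. In whole cultures, fewer cells of a type and less RNA per cell cannot be told apart.

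RefSeq promoters (GRCm38.p6) matched 66 of the 75 members, and 4 stretches are printed for genes that rose or fell with time. Each printed stretch is clear of annotated genes. That does not hold for the 100 bases before Mrpl30, Mrpl33, Mrpl46, Mrps16, Mrps6 and others, which are left out. Of those named, Mrps16 has the ETS motif CCGGAAG in the 250 bases before its start and the others do not. The first 2 lines are the 100 bases just before the start of Mrps18a and Mrps22, which had among the highest increases at 24 h. The third is the same stretch of Mrpl47, which fell, and the last is everything that lies between the divergent starts of Mrpl46, which rose, and Mrps11, which fell. Capitals mark an ETS motif in Mrps18a and Mrps22 and, on the other strand, a thyroid hormone half-site in Mrpl47. Each is written 5′ to 3′ on the strand of the gene, and the last on the plus strand.

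Mrps18a, chr17:46110904-46111003, plus strand: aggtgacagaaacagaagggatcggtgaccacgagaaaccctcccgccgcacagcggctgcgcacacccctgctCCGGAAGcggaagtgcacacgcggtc
Mrps22, chr9:98601680-98601779, minus strand: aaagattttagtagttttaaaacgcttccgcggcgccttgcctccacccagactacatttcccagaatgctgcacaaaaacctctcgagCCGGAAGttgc
Mrpl47, chr3:32736756-32736855, minus strand: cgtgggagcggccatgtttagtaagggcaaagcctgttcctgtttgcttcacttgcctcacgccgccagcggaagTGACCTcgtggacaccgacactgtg
Between Mrpl46 and Mrps11, chr7:78783090-78783130, plus strand: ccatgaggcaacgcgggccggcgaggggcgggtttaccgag

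In the 250 bases before the start, on both strands, the ETS motif CCGGAAG was in 16 of 66 members (24.2%), against 9.13% of 17492 promoters of coding genes and 14.2% of the promoters of genes tested here. The core GCATGCG bound by the factor NRF1, a regulator of nuclear genes for mitochondrial proteins, was in 8 members (12.1%), against 3.79% of coding genes and 5.95% of tested genes. The YY1 motif AAGATGG was in 6 (9.09%), against 4.1% of coding and 4.17% of tested genes. The E-box CACGTG was in 5 (7.58%), against 6.64% and 8.81%, and the half-site AGGTCA in 9 (13.6%), against 12.6% and 10.1%. A direct repeat DR4 with these exact letters was in 0 members and in 0 of the other promoters searched. Of the matched members, 37 rose and 8 fell between 6 and 24 h without T3. ETS was in 9 of the 37 and 2 of the 8, the NRF1 core in 3 and 0, YY1 in 0 and 2, and the half-site in 6 and 3. A match is a description of letters and shows no binding, and the motifs were not tested against the response.

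The first comparison asks whether T3 changed these genes. No mitochondrial ribosomal protein gene passed the threshold of 0.05 in the response shared by all 6 pairs of T3 and untreated libraries (limma on log2(RPM + 1), adjusted over all genes), while 6.45% of all genes tested did. At an unadjusted p under 0.05 the count was also 0 of 74, against 18.1% of all genes. The median log2 fold change of the 74 was -0.002 and of all genes -0.007. The middle 50% of the members spanned -0.1 to 0.108, against -0.168 to 0.143 over all genes, and 36 were above 0 and 38 below.

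The extremes of the shared response were Mrps16 at -0.45 (SE 0.344, adjusted p = 0.56, limma) and Mrpl42 at 0.35 (SE 0.192, adjusted p = 0.395, limma). Mrps16 is a small-subunit protein with a bacterial relative, and Mrpl42 a mitochondria-specific protein of the large subunit. The smallest adjusted p was 0.368, for Mrpl54 at -0.19 (SE 0.098, limma). Only Mrpl18 and Mrps25 kept 1 sign, higher with T3, in all 6 pairs, which is 2.7% of the members against 14.3% of all genes. Their log2 ratios were 0.02 to 1.1 for Mrpl18 and 0.07 to 0.3 for Mrps25. With the C17.2a 24 h pair left out, 1 member of 73 passed, Mrpl52, a large-subunit protein, at -0.31, where 9.14% of all genes were higher and 5.81% lower.

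In C17.2a, 0 of 74 passed, where 1.37% of all genes did, and 4 had an unadjusted p under 0.05, against 16.5% of all genes. In C17.2b, 0 passed (3.11% of all genes) and 1 had an unadjusted p under 0.05 (13% of all genes). The members' median was -0.05 in C17.2a and 0.12 in C17.2b, beside -0.06 and 0.05 over all genes. The test of the difference between lines called 0 members and 0% of all genes, with 5 members (6.76%) and 5.51% of all genes at an unadjusted p under 0.05. Without the C17.2a 24 h pair, Mrpl52 also passed in C17.2b, at -0.36, beside 7.59% of all genes higher and 3.74% lower.

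By time, 0 members passed at 6 h (0.161% of all genes), 0 at 12 h (0.492%) and 0 at 24 h (1.06%). The counts at an unadjusted p under 0.05 were 1, 0 and 6, beside 7.61, 7.92 and 15.9% of all genes, and the 6 at 24 h are 8.11% of the members. The difference of the response between 24 and 6 h called 0 members and 0% of all genes, and 2 members had an unadjusted p under 0.05 (5.61% of all genes). The 1 member at 6 h was Mrpl20 at 0.83 (SE 0.283, adjusted p = 0.455, limma). It lay at 28.76 RPM untreated and 37.87 RPM with T3 in C17.2a, and at 18.18 and 45.43 RPM in C17.2b. Both values with T3 exceeded both values without it at 6 h, but the other untreated libraries reached 41.75 RPM.

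**Figure D1:**
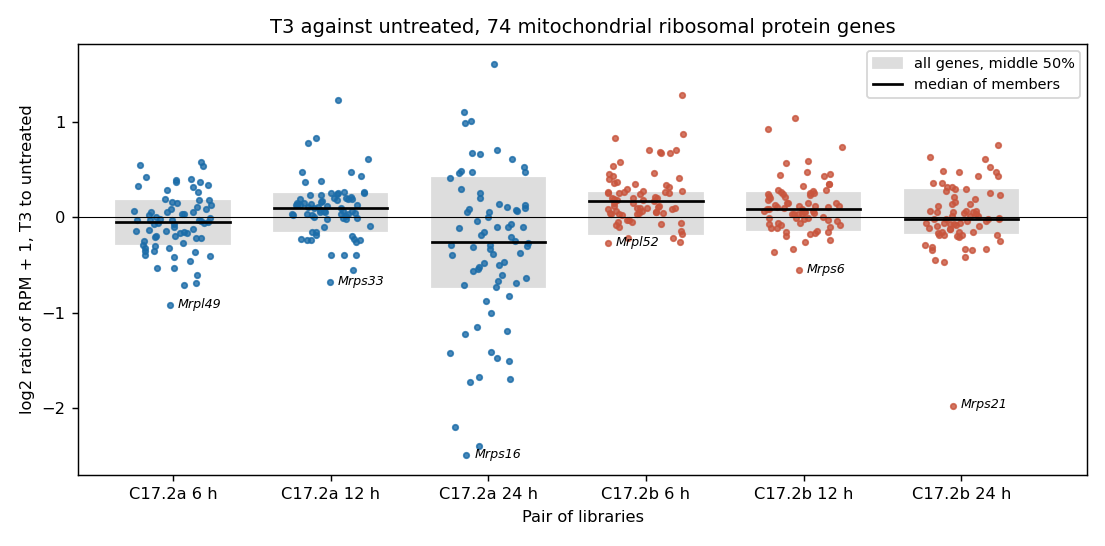
Log2 ratio of RPM + 1, T3 to untreated, in each of the 6 pairs of libraries (x axis), with 1 point for each of 74 genes, blue for C17.2a and red for C17.2b. Black bars are the members' medians, grey boxes the middle 50% of all genes with at least 50 tags, and the lowest gene of each pair is named; the C17.2a 24 h pair is the widest, and Mrps21 stands alone in the C17.2b 24 h pair.

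Single pairs have no replicate, so they are described by ratios of 1.5-fold or more, on RPM + 1, and only genes with 50 or more tags over both libraries were counted. In C17.2a at 6 h, 4 of 71 members were lower and 0 higher, where 12.2% of all genes passed that ratio in either direction. At 12 h, 4 were higher and 1 lower of 72 (10.7% of all genes). In C17.2b, 7 of 73 were higher and 0 lower at 6 h (14.2%), 4 of 71 higher and 0 lower at 12 h (12.5%), and 2 higher and 1 lower of 72 at 24 h (15.6%). All 5 pairs had a smaller share of members than of all genes past this ratio.

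The C17.2a pair of 24 h stood apart: 8 members were higher and 22 lower of 73 (41.1%), where 47.0% of all genes passed. The T3 library of this pair lies far from its partner across the whole table, and no second library exists to set against it. The 2 members with the lowest ratio were Mrps16 and Mrps18a. Mrps16 was at 28.07 RPM untreated and 4.17 RPM with T3 in C17.2a, and at 28.35 and 24.53 RPM in C17.2b. Mrps18a was at 29.8 RPM untreated and 4.89 RPM with T3 in C17.2a, and at 32.15 and 32.38 RPM in C17.2b. For both genes the C17.2a T3 24 h library had about the level of the 8 earlier libraries, which spanned 4.08 to 7.19 RPM for Mrps16 and 2.55 to 5.85 RPM for Mrps18a.

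Members with higher values in that T3 library included Mrps6 (4.7 RPM untreated, 16.34 RPM with T3), Mrpl18 (129.73 and 279.95 RPM) and Mrpl42 (16.64 and 34.47 RPM). In C17.2b at 24 h these 3 genes were within 1.5-fold of their partner. The pattern of C17.2b at 24 h was another one: Mrps21, a small-subunit protein with a bacterial relative, was at 176.88 RPM untreated and 44.43 RPM with T3, the lowest value of its 12 libraries. In C17.2a it was at 301.61 and 325.15 RPM. At 6 and 12 h the T3 value of Mrps21 was above its partner in all 4 pairs.

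The count at 24 h rests on which pair is in the fit. With the C17.2b 24 h pair left out, 31 members passed at 24 h, 12 higher and 19 lower, beside 16% and 25.6% of all genes. With the C17.2a 24 h pair left out, 1 member passed, Mrps21 at -1.97, beside 3.97% of all genes higher and 1.68% lower. In both cases the remaining 24 h pair is assumed to vary like the pairs of the other times. With either 24 h pair left out, Mrpl20 (0.83) and Mrps21 (0.71) passed at 6 h, which 0 members did in the full fit. In those fits 3.77 to 3.79% of all genes were higher and 2.77 to 2.8% lower. The estimate of Mrps18a at 24 h was -1.19 with both pairs and 0.01 without the C17.2a pair, and that of Mrps21 was -0.93 with both and 0.11 without the C17.2b pair.

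The second comparison follows the genes over time in cells left untreated after the 24 h without serum. Between 6 and 24 h, 39 of 73 mitochondrial ribosomal protein genes rose (53.4%; 43.0% of all genes rose) and 10 fell (13.7%; 13.1% of all genes fell), by limma on log2(RPM + 1) with adjustment over all genes. The median log2 fold change was 0.6 for the members and 0.4 for all genes, a difference of 0.2. On this scale the median of the whole table lay above 0. Scaling the libraries by median ratios set the median of all genes to -0.02 and of the members to 0.16, and then 25 members were higher and 18 lower, beside 24.4% and 26.3% of all genes. All 25 and 10 of the 18 were among those called the same way on RPM. The share of the 10 top genes differs between 24 h and the earlier times as given above. Depth was 7.14e+06 to 9.8e+06 tags at 24 h and 9.4e+06 to 1.91e+07 tags earlier, ranges that overlap. The part of depth and of this share in these counts beyond the scaling was not tested.

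**Figure D2:**
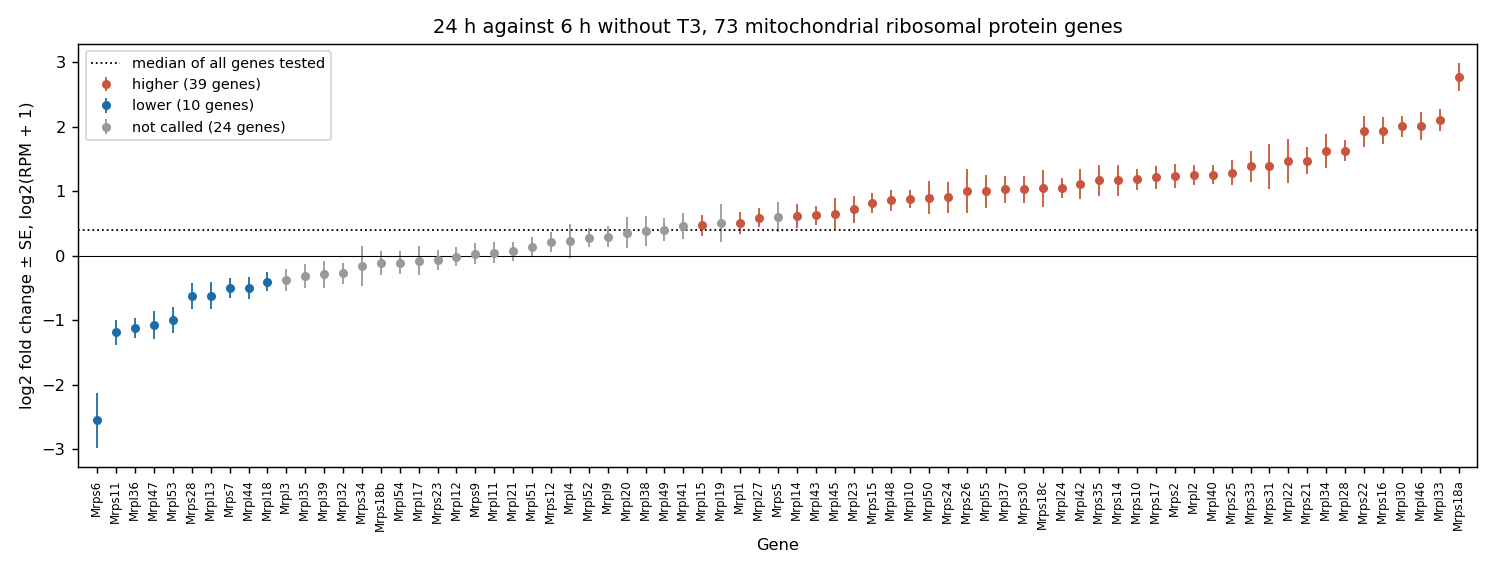
Log2 fold change with its standard error for 73 mitochondrial ribosomal protein genes, 24 h against 6 h in untreated cells, sorted. Red points rose (39), blue points fell (10), grey points did not pass the test (24), and the dotted line is the median of all genes tested, 0.4; the members run from Mrps6 at -2.55 to Mrps18a at 2.77.

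Summed over the members, the level was 3934.4 to 4362.2 RPM in the 8 libraries of 6 and 12 h and 4707 to 5450.4 RPM in the 4 libraries of 24 h, or 0.393 to 0.436% and 0.471 to 0.545% of all tags. On RPM, the 2 sets of libraries did not overlap. Nor did the sums of cytosolic ribosomal proteins (124128 to 157452 early, 166184 to 200082 RPM late). The same held for nuclear-encoded oxidative phosphorylation subunits (17785 to 21928 and 25101 to 28577 RPM). Median-ratio scaling divides RPM by 0.855 to 0.955 early and by 1.142 to 1.318 at 24 h. Divided by these factors, the members' sums at 24 h no longer lie above the early ones, and most lie below them. The separation is therefore stated for RPM only, and the sums given here are not rescaled. Large-subunit genes summed to 3162.7 to 3573.6 RPM early and 3748.8 to 4220 RPM at 24 h, and small-subunit genes to 696.8 to 877.4 RPM and 958.2 to 1274.6 RPM. Mrpl13, a large-subunit protein with a bacterial relative, went the other way. It alone held 21.4% of the members' summed mean, and its level was 877.33 to 1279.33 RPM early and 547.19 to 908.53 RPM at 24 h, with 1 early library below the highest late one. Without Mrpl13 the sums were 2885.3 to 3373 RPM early and 4021.4 to 4690.2 RPM late.

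**Figure D3:**
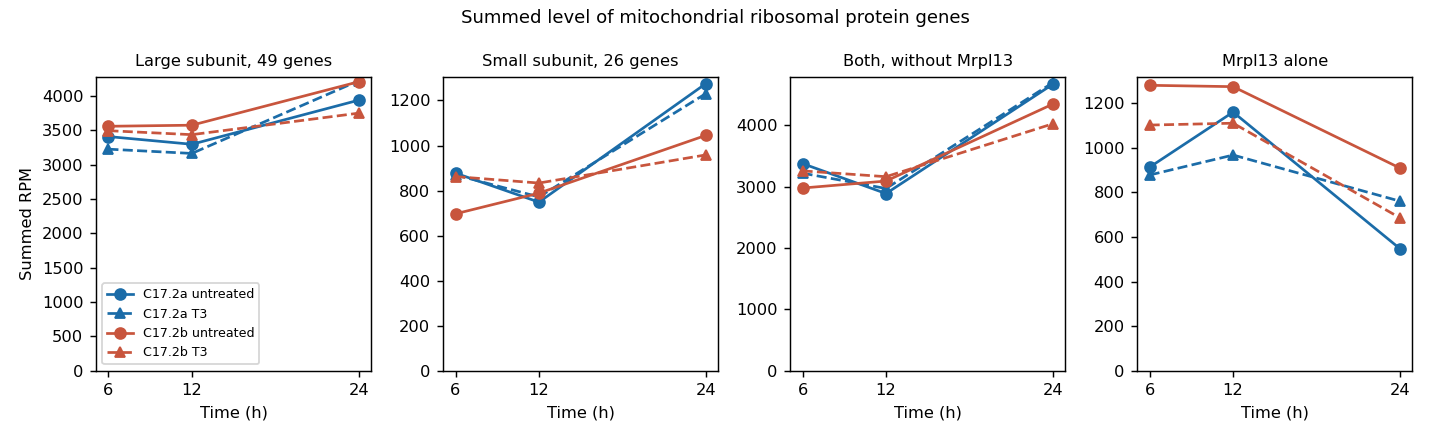
Summed RPM (y axis, from 0) against time for the large subunit, the small subunit, both without Mrpl13, and Mrpl13 alone, with 1 point per library and lines joining libraries of 1 line and treatment. On RPM, without median-ratio scaling, the sums at 24 h lie above those of 6 and 12 h in all 4 series for both subunits. Mrpl13 ends at 547.19 to 908.53 RPM, below its own 12 h value in each series.

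Between 6 and 12 h little moved. The median log2 ratio of 74 members was -0.25 in untreated C17.2a, -0.12 in C17.2a with T3, -0.01 in untreated C17.2b and -0.1 in C17.2b with T3. At least 1.5-fold changes were seen in 2.7 to 13.5% of the members in these 4 series, beside 5.03 to 11% of all genes. Between 12 and 24 h the medians were 0.94, 0.38, 0.72 and 0.5, beside 0.55, 0.26, 0.43 and 0.45 over all genes. Past 1.5-fold were 71.6, 51.4, 63.5 and 58.1% of the members and 60.1, 51.6, 52.5 and 54.0% of all genes, so in C17.2a with T3 the share of members was at that of all genes.

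Among the members that rose, Mrps18a had the highest fold change. This protein is named for its likeness to bacterial S18, but it sits in the large subunit and counts as mitochondria-specific under its revised name. Its level was 3.2 to 3.95 RPM in the untreated libraries of 6 and 12 h, and 29.8 RPM in C17.2a and 32.15 RPM in C17.2b at 24 h. The log2 fold change was 2.77 (SE 0.215, adjusted p = 2.09e-05, limma), a 6.84-fold higher level, and the 24 h values lie far above all earlier ones. Its promoter is the first of those printed above, with the ETS motif ending 19 bases before the start.

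Mrpl33 and Mrpl30, large-subunit proteins with bacterial relatives, rose by 2.11 and 2.01 on the log2 scale. Mrpl33 was at 69.2 and 59.45 RPM at 6 h, 72.31 and 73.36 RPM at 12 h, and 335.7 and 233.3 RPM at 24 h in untreated C17.2a and C17.2b. Mrpl30 was at 63.86 and 48.03 RPM at 6 h, 51.08 and 53.09 RPM at 12 h, and 257.62 and 199.12 RPM at 24 h. In both genes C17.2a had the higher value of the 2 lines at 24 h, and neither 24 h value came near the earlier ones. Mrpl46, a mitochondria-specific protein of the large subunit, stayed between 4.39 and 5.26 RPM at 6 and 12 h and reached 26.33 and 21.97 RPM at 24 h, a log2 fold change of 2.02 (SE 0.214).

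In the small subunit, Mrps16 and Mrps22 had the highest increases. Human forms of both are known disease genes of combined respiratory chain deficiency. Mrps16 went from 7.19 and 6.08 RPM at 6 h to 28.07 and 28.35 RPM at 24 h in C17.2a and C17.2b (log2 fold change 1.94, SE 0.21). Mrps22, specific to mitochondria, went from 5.49 and 6.49 RPM to 30.42 and 21.57 RPM (1.93, SE 0.239). The 12 h values, 4.09 and 4.22 RPM for Mrps16 and 4.53 and 5.11 RPM for Mrps22, were still at or below those of 6 h.

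Of the members that fell, Mrps6, the relative of the bacterial protein that pairs with S18, had the lowest fold change. Untreated C17.2a had 77.55, 74.18 and 4.7 RPM at 6, 12 and 24 h, and untreated C17.2b had 33.21, 73.36 and 12.75 RPM. The log2 fold change of -2.55 (SE 0.423, adjusted p = 0.000726, limma) thus joins 2 lines that differ in size, with C17.2b at 6 h well below its own 12 h value. All 4 libraries of 24 h, at 4.7 to 16.34 RPM, lay below all 8 earlier ones. In RefSeq the bases just before the start of Mrps6 lie within Slc5a3, a transporter gene, and how tags of overlapping genes were assigned is not known here.

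Mrps11, Mrpl36, Mrpl47 and Mrpl53 fell by 1.18, 1.12, 1.07 and 0.99 on the log2 scale. Mrpl36, among the smallest proteins of the large subunit, was at 61.83 to 80.01 RPM in the 8 earlier libraries and at 30.25 to 35.18 RPM in the 4 late ones. Mrpl47, a relative of bacterial L29 near the exit of the peptide tunnel, was at 15.37 to 22.98 RPM and 9.08 to 12.41 RPM. Neither gene's early and late values overlap. Mrps28 was the sixth lowest at -0.63 (adjusted p = 0.0232, limma), a call that was lost without either 6 h library or without C17.2a 24 h, and in 2 further settings.

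**Figure D4:**
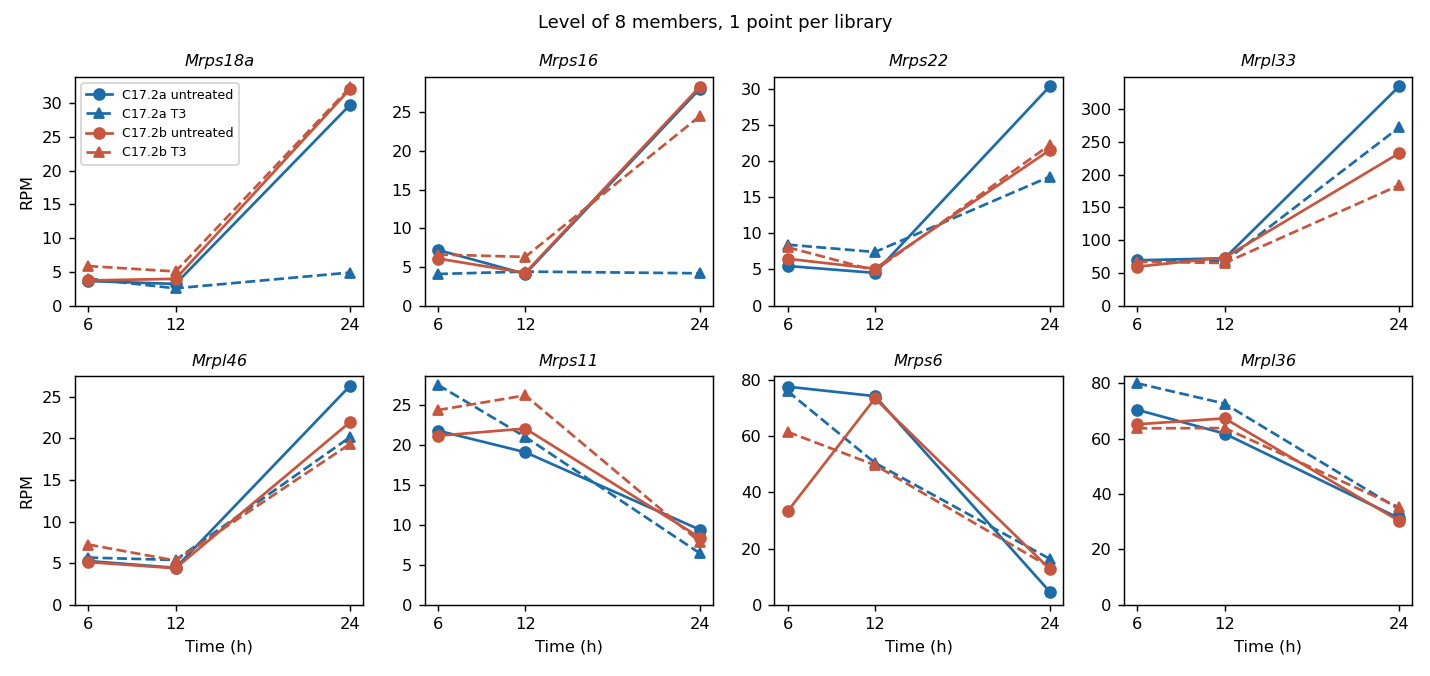
RPM (y axes, each from 0) against time for 8 members, with 1 point per library; blue is C17.2a, red C17.2b, circles and solid lines untreated, triangles and dashed lines T3. The C17.2a T3 24 h library stays at the early level in Mrps18a (4.89 RPM) and Mrps16 (4.17 RPM) but not in the other 6 genes.

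By subunit, 24 of 48 large-subunit genes rose and 6 fell (median log2 fold change 0.49), and 15 of 25 small-subunit genes rose and 4 fell (median 1). By origin, 23 of 45 genes with a bacterial relative rose and 8 fell (median 0.51), and 16 of 28 mitochondria-specific genes rose and 2 fell (median 0.76). Over all genes 43.0% rose and 13.1% fell, with a median of 0.4. Differences between these groups were not tested. Members with a lower level in the T3 libraries of 6 h tended to have the higher fold change without T3. Those libraries are not in the untreated test. Across genes, Spearman's rho between the 2 was -0.43 over 73 members and -0.27 over all genes. Genes are measured in the same libraries and are not independent.

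Mrpl46 and Mrps11 are a pair that starts back to back, with 41 bases between the starts, the stretch printed above. Without T3, Mrpl46 rose by 2.02 while Mrps11 changed by -1.18. In the 8 early libraries Mrpl46 was at 4.39 to 7.24 RPM and Mrps11 at 19.1 to 27.53 RPM. In the 4 late libraries Mrpl46 was at 19.34 to 26.33 RPM and Mrps11 at 6.44 to 9.39 RPM. Neither gene's groups overlap, in either line, with or without T3.

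The pair was noticed after its values were seen, so all such neighbours were then listed. A gene on the other strand starting within 1000 bases and transcribed away from the member was found for 25 of 66 members (37.9%), against 18.4% of tested genes with a promoter. In 21 distinct pairs both genes were tested between 6 and 24 h, and in 6 of these (28.6%), the pair that prompted the search included, both passed the threshold. Over 414 such pairs without a member it was 32.1%, and of their 133 pairs with both genes called 88 moved the same way and 45 (33.8%) in opposite directions. The 2 that moved the same way were Mrpl14 with Tmem63b (0.62 and 0.94) and Mrpl43 with Peo1, the mitochondrial DNA helicase (0.63 and 0.48), both up. The other 4 members' pairs moved in opposite directions, too few to set against that share. Besides Mrpl46 and Mrps11 these were Mrpl37 (1.03) with Cyb5rl (-2.15), Mrpl27 (0.59) with Eme1 (-1.61), and Mrps7 (-0.5) with Gga3 (0.99). Gga3 was low, at 1.43 to 6.38 RPM. The value of Mrpl27 stands beside a median of 0.4 over all genes, and the pairs were not recounted with median-ratio scaling. The intervals between starts were 127 bases for Mrpl37, 47 for Mrpl27 and 223 for Mrps7.

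The third comparison repeats the time course in the 6 T3 libraries, none of which is in the untreated test. With T3, 16 of 73 members were higher at 24 h than at 6 h (21.9%; 19.6% of all genes) and 4 lower (5.48%; 4.75% of all genes). All 16 were also higher, and all 4 also lower, without T3. Most genes of the whole table called with T3 were likewise called the same way without it. This held for 1774 of 1991 genes higher with T3 and for 440 of 482 lower. Those genes are 17.8% and 4.41% of all genes tested in both. The median was 0.27 for members and 0.35 for all genes. With median-ratio scaling, 7 were higher and 7 lower, beside 6.25% and 8.18% of all genes.

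The highest of the 16 was Mrpl42 at 2.01 (SE 0.285, adjusted p = 0.0162, limma). It went from 6.06 to 34.47 RPM in C17.2a and from 7.02 to 24.81 RPM in C17.2b. Mrpl30 (1.86), Mrpl33 (1.7), Mrpl46 (1.49), Mrps2 (1.44) and Mrps25 (1.34) came next. Mrps2 and Mrps25 belong to the small subunit, and the other 4 genes to the large one. The 4 that fell were Mrps6 (-2.13), Mrps11 (-1.73), Mrps28 (-1.31) and Mrpl36 (-1.01).

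These counts move strongly with single libraries. Without C17.2a T3 24 h, 32 members were higher and 12 lower (44.5% and 12.3% of all genes). Without C17.2b T3 24 h, 29 were higher and 12 lower (38.2% and 18.5% of all genes). Without either 12 h library, 5 passed, 3 higher and 2 lower, beside 4.4 to 4.7% and 1.17 to 1.28% of all genes. Without either 6 h library, 0 members and 0% of all genes passed. In each of these fits 1 time has a single library, assumed to vary like the others, and 1 residual degree of freedom is left. The 5 that passed without a 12 h library were Mrpl30, Mrpl33, Mrpl42, Mrps11 and Mrps6 in both cases.

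Across 73 genes, the changes without and with T3 had a Pearson correlation of 0.84 and a Spearman correlation of 0.81, beside 0.77 and 0.74 over all genes. No library is in both, but cells, lines and harvest times are shared, and genes are not independent. The sign was the same in 60 of 73 members (82.2%) and in 80.2% of all genes, a similar share. Leaving out the C17.2a T3 24 h library gave 0.87 for both measures and the same sign in 64 of 73 (87.7%; 86.2% of all genes). In that case 31 members (42.5%) were called higher and 9 (12.3%) lower in both, beside 35.6% and 9.32% of all genes, and 1 was called in opposite directions: Mrps21, at 1.48 without T3 and -1.61 with T3, where C17.2b supplies the only T3 library of 24 h.

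**Figure D5:**
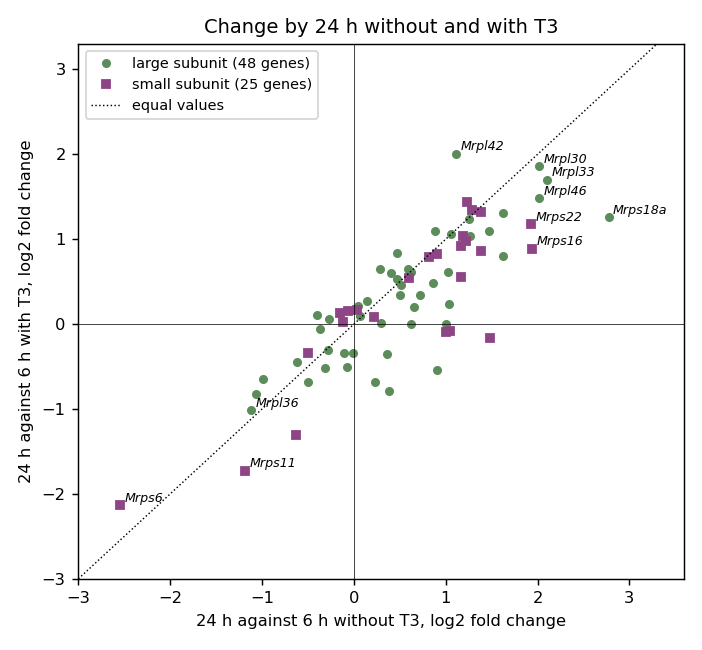
Log2 fold change of 24 h against 6 h for 73 members, without T3 (x axis) and with T3 (y axis, other libraries), circles for the large and squares for the small subunit. The 2 changes are correlated (Pearson 0.84), with a members' median of 0.601 without T3 and 0.275 with T3. The dotted line marks equal values. Mrps18a and Mrps16 lie below it, as do Mrps21 and Mrpl50, which carry no label.

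By the RPM of single libraries, 30 of 74 members (40.5%) had all 4 libraries of 24 h above all 8 earlier ones, where 26.5% of all genes did. They include Mrpl33, Mrpl30, Mrpl46, Mrpl42, Mrps22, Mrps2 and Mrps25. The reverse held for 5 members (6.76%), against 6.60% of all genes: Mrpl36, Mrpl47, Mrps11, Mrps28 and Mrps6. Without C17.2a T3 24 h, 39 members (52.7%) were above, against 39.6% of all genes, and Mrps16, Mrps18a and Mrps30 were then among them. In that case 8 members (10.8%) were below, against 9.84% of all genes, with Mrpl18, Mrpl53 and Mrps7 added.

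The fourth comparison sets the lines against each other without T3. In C17.2b, 0 of 73 members were higher (2.93% of all genes) and 2 were lower (5.92% of all genes). Mrpl23, a large-subunit protein at the exit of the peptide tunnel, was lower by 0.83 on the log2 scale (SE 0.172, adjusted p = 0.0158, limma). It had 11.91, 6.75 and 19.6 RPM at 6, 12 and 24 h in C17.2a and 5.87, 3.59 and 10.72 RPM in C17.2b. Each C17.2b value is below that of the same time in C17.2a. With T3 the values were 7.95, 9.06 and 11.93 RPM in C17.2a and 10, 8.41 and 11.21 RPM in C17.2b, where the order was not the same at each time.

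Mrpl17, also of the large subunit, had a log2 difference of -0.7 (SE 0.186, adjusted p = 0.0455, limma), from 19.33, 14.39 and 21.13 RPM in C17.2a to 11.52, 11.48 and 9.36 RPM in C17.2b. With median-ratio scaling this call was lost and Mrpl52 was called higher in C17.2b, at 0.45. Both calls were lost without the untreated 6 h library of either line, and without either 12 h library Mrpl20 (-0.8) passed beside both. Without either untreated 24 h library, Mrpl17 was lost and Mrps6 (-0.61) and Mrpl32 (-0.49) passed beside Mrpl23.

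Other genes of mitochondrial translation were listed by function and not by how they moved, and each count below is for 24 h against 6 h without T3, where 43.0% of all genes rose and 13.1% fell. Of 6 mitoribosomal proteins under other symbols, 3 rose and 0 fell: Aurkaip1 (1.04), Dap3 (0.82), a GTP-binding protein of the small subunit, and Gadd45gip1 (0.71). Translation factors had 4 higher and 2 lower of 11 (36.4% and 18.2%), with the elongation factors Gfm2 (1.07) and Gfm1 (0.99) up and Tufm (-0.8) down. Of 21 genes for charging of transfer RNAs, 9 rose (42.9%) and 2 fell (9.52%), with Kars (1.82) and Iars2 (1.01) up and Gatc (-1.01) down. Assembly and ribosomal RNA modification genes had 10 up and 3 down of 24 (41.7% and 12.5%), led by Gtpbp5 (2.07), Ngrn (1.58) and Dhx30 (1.54).

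The shares of the charging and assembly lists that rose were thus near that of all genes. Mitochondrial transcription and RNA genes had 8 up and 2 down of 17 (47.1% and 11.8%). Tfb2m, a partner of the mitochondrial RNA polymerase, rose by 2.09, Hsd17b10, a subunit of mitochondrial RNase P, by 1.75 and Mtpap, the poly(A) polymerase, by 1.33. Among 11 regulators of mitochondrial biogenesis, 2 rose and 2 fell (18.2% each), and the 3 with the smallest p were Myc (-0.98), Yy1 (-0.59) and Nrf1 (0.82). Nrf1 was at 9.05 to 14.09 RPM in the early libraries and 17.52 to 22.65 RPM in the late ones. Cytosolic ribosomal proteins had 38 up and 5 down of 76 (50% and 6.58%, median 0.71), and nuclear-encoded oxidative phosphorylation subunits 38 up and 8 down of 72 (52.8% and 11.1%, median 0.62), both beside the members' median of 0.6. In the shared T3 response, where 6.45% of all genes were called, Peo1 (0.38, SE 0.083, adjusted p = 0.0284, limma) was the 1 gene called in the 6 lists of mitochondrial translation, transcription and their regulators. Of 77 cytosolic ribosomal proteins 0 were called, and of 73 oxidative phosphorylation subunits 2 were, both higher: Cox7a1 (2.26, SE 0.368), a cytochrome c oxidase subunit, and Atp5j (0.81, SE 0.171), a subunit of ATP synthase.

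Over 12 libraries, the 5 genes outside the family most like the members' median profile were Polr1c (Pearson 0.985), a subunit shared by RNA polymerases I and III, Cnih (0.982), Utp6 (0.98), a factor of cytosolic ribosome assembly, Celf1 (0.979) and Blmh (0.978). Of the members, 32 of 74 (43.2%) correlated above 0.8 with that profile, against 25.3% of all genes, and 12 (16.2%) below -0.5, against 13.8%. The profile is the median of these same 74 members, which favours high correlations among them by construction. The 2 shares above 0.8 therefore do not show that the family moves together. The lowest were Mrps6 (-0.915), Mrpl36 (-0.91) and Mrpl13 (-0.835). Sums of cell type markers differed with time as well: 234.5 to 417.85 RPM at 24 h against 463.45 to 948.25 RPM earlier for 4 oligodendrocyte markers, and 2684.76 to 7308.47 RPM against 1259.49 to 3705.42 RPM for the 4 fibroblast markers in the table, which overlap. The ranges also overlapped for 8 progenitor markers (1655.71 to 5799.15 against 1386.89 to 3151.1 RPM), 3 neuron markers (78.72 to 577.79 against 45.12 to 173.75 RPM) and 2 astrocyte markers (36.74 to 60.23 against 43.2 to 57.3 RPM). Without T3, the progenitor markers went both ways, with Nes (2.26) and Vim (1.07) higher at 24 h and Prom1 (-1.03), Sox2 (-0.93) and Fabp7 (-0.68) lower. Tubb3 (1.45) and Col1a1 (0.85) rose and Sox10 (-1.22) fell, and their part in the changes of the members was not tested.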

How the data were processed

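The authors deposited 1 table of RPM values, tags scaled to the library total, for 12774 symbols and 12 libraries, and a missing entry was read as 0. The build is mm9 per the submitters' processing notes. For the aligner and the rule assigning tags to genes, nothing is given in the sources used here. Low values were whole multiples of 1 tag's worth in 90 to 93.8% of cases (tolerance 0.0055 RPM), so counts were not recovered and no count test was run. Depths and floors of 3 tags come from that step and cover counting error only.

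Tests used limma 3.58.1 in R 4.3.3 on log2(RPM + 1), which understates fold changes of low genes, with eBayes and a trend, at least 1 RPM in at least 3 libraries, Benjamini-Hochberg adjustment over all genes and a threshold of 0.05. T3 tests had the pair of libraries of 1 line and time as a block, time tests the line, and line tests the time, since each group has 1 library. The limma fits were tested on simulated data. Named members are those past the threshold (at most the 6 highest and 6 lowest) and the 3 highest and 3 lowest of each comparison, with the most abundant and the low ones, and up to 3 genes of each other list. Members and lists were chosen with earlier results of these data known. Promoter sequences and starts are RefSeq's (GRCm38.p6), a build other than the authors'. GC content came from GENCODE M21 transcripts. Alternatives covered pseudocounts, filters, scaling, blocks and left-out libraries.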

Additional observations from a re-analysis of the deposited data

How the results depend on the processing

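Of 957 values of named members under alternatives, 878 kept their sign and their side of the threshold, 46 lost a call, 21 gained one and 12 changed sign; of 149 counts, 118 stayed within 1.5 times the value reported. All 12 sign changes were of values that passed no test, with 1 pair left out. With pairs left out 1 at a time, the range was -0.44 to 0.14 for Mrps18a in the shared response, -0.94 to 0.03 for Mrps30 and -0.29 to 0.79 for Mrps6 in C17.2a, and -0.91 to 0.49 for Mrps21 in C17.2b. It was -1.22 to 0.18 for Mrps21 between lines, -0.92 to 0.18 for Mrpl49 and -0.69 to 0.1 for Mrps16 at 6 h, and -2.39 to 0.01 for Mrps18a and -1.97 to 0.11 for Mrps21 at 24 h. For 24 minus 6 h it was -0.35 to 1.19 for Mrps6, with -0.03 without the C17.2a 6 h pair, and -0.01 to 1.02 for Mrpl18. Members called then ranged from 0 to 1 in the shared response and in C17.2b, 0 to 2 at 6 h, 0 to 31 at 24 h and 0 to 26 for 24 minus 6 h. With libraries left out, they ranged from 37 to 51 for time without T3, 0 to 44 for time with T3 and 0 to 3 between lines. Between lines, 1 member was called with a pseudocount of 5, with no filter and with all 12 libraries in the fit. Of all genes, 1.14 to 2.54% were higher and 2.28 to 4.93% lower in these 3 settings. In single pairs, a lower limit gave 23, 14 and 46 members at 6, 12 and 24 h in C17.2a and 19, 14 and 18 in C17.2b, and 2-fold gave 0, 1 and 17 and 1, 1 and 1. The cause of these moves was not tested beyond the smaller number of libraries. No paired analysis by replicate number was possible because the labels carry none. Replacing the pair block by line and time as additive terms left 0 members called in each T3 test. Of all genes, at most 4.83% were higher and 2.86% lower in these fits. Residual degrees of freedom of 2 and single libraries limit what the time and line comparisons can show, and genes near 3 tags, here Mrpl16 and Mrps27, have no usable fold change. A GC correction added after seeing the data gave 40 members of 73 higher and 9 lower at 24 h without T3, beside 44.4% and 12% of all genes.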
